A study of Mus musculus with 14 samples.

Results

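The T cell receptor V segments were examined here as a set of genes: every row of the count table whose Ensembl identifier has a mouse symbol beginning with Trav, Trbv, Trdv, Trgv or Tcrg-V followed by a number. The rule uses names only, and 176 of the 48794 genes in the table met it. They comprise 128 Trav segments of the alpha chain and 6 Trdv segments of the delta chain, both on chromosome 14, 35 Trbv segments of the beta chain on chromosome 6, and 7 segments of the gamma chain on chromosome 13 (GRCm38). The annotation marks 34 of the 176 as pseudogenes.

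A T cell receptor is a dimer of an alpha and a beta chain or of a gamma and a delta chain. Each chain gene is put together in the developing T cell by joining 1 of many V segments to a J segment (with a D segment between them in the beta and delta chains), after which the V and J are spliced to a constant region. The V segment encodes most of the antigen-contacting domain, so the V segments in the messenger RNA of a mixed population record which receptors its T cells carry. Mouse liver is known for its invariant natural killer T cells (NKT cells), whose alpha chain joins Trav11 to Traj18 and pairs mostly with beta chains that use Trbv13, Trbv29 or Trbv1. Mucosal-associated invariant T cells use Trav1.

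The study sorted leukocytes from needle biopsies of mouse liver, asking how few cells give a usable library. All 14 samples were from untreated wild type mice. Cells positive for CD45, the surface phosphatase carried by leukocytes, were sorted by flow cytometry into lots of 2500, 5000, 10000 or 20000 cells with 3 libraries each, and 2 libraries were made from bulk liver as the control. Total RNA was turned into full-length cDNA with a low-input SMART-Seq kit, amplified and tagmented. Strain, age, sex and whether replicates came from separate animals are not stated in the labels used here. The p-values below therefore measure the spread between these libraries, which may be technical. Library totals were 6723357 to 14496314 counts in the sorted libraries and 7605290 to 8034138 in bulk liver.

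The leukocyte and hepatocyte markers separated the sorted libraries from bulk liver. The summed level of 3 leukocyte genes was 6592 to 7286 counts per 1e6 counts (CPM) in the sorted libraries and 40.8 to 45.6 in bulk liver, and that of 4 hepatocyte genes was 70.3 to 112 against 37003 to 37571. The 7 T cell markers summed to 1431 to 1708 CPM in the sorted libraries and 3.68 to 5.48 in bulk liver, with none at 0 in the sorted libraries. CD45 sorting takes all leukocytes. B cell (2509 to 2841 CPM for 3 genes) and monocyte and macrophage markers (9517 to 11533 CPM for 3 genes) were therefore present too, as were those of NK cells (375 to 473 CPM for 4 genes). Among the macrophage markers, Clec4f was at 130 to 243 CPM in the sorted libraries and 125 and 151 in bulk liver. The 2 endothelial markers summed to 7.60 to 21.6 CPM against 42.3 to 48.1 in bulk liver. The 2 erythroid markers summed to 2.32 to 38.6 CPM against 197 to 242. Zbtb16, the transcription factor of NKT and mucosal-associated invariant T cells, was at 5.54 to 10.6 CPM in the sorted libraries and 3.86 to 5.13 in bulk liver, a much smaller gap than that of the T cell markers. Differences in V segment CPM can reflect fewer T cells or less receptor RNA per cell, which cannot be told apart in bulk RNA.

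Several segments are near copies of each other. The alpha locus holds families whose members carry the suffixes d and n, and among them is the NKT segment Trav11. The stretch from base 193 to base 342 of the coding sequence is shown for its 3 copies (GENCODE M21 transcripts, GRCm38, plus strand), because the value of Trav11 depended on which table was read. Capitals mark bases that differ from Trav11.
Trav11: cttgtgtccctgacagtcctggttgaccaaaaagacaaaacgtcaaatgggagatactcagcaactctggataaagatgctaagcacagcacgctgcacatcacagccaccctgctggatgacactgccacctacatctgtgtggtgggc
Trav11d: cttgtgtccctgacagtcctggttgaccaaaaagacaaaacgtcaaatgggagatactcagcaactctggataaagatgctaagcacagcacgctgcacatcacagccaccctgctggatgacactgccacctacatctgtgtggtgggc
Trav11n: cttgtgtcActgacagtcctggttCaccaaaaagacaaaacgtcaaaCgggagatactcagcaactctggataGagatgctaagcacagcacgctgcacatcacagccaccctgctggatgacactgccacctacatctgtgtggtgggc
Trav11 (chr14:53519303-53519859) and Trav11d (chr14:52824357-52824912) have the same coding sequence, 343 and 342 bases long, except that Trav11 has 1 more base at its end. The pseudogene Trav11n (chr14:53135122-53135678) differs from Trav11 at 8 of its bases.

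The Trbv13 family of the beta locus is the contrasting case, because its 3 members are related but easily told apart, and they include the most used segment of the whole set. The last 150 coding bases are shown (plus strand, GRCm38). Capitals mark bases that differ from Trbv13-2, or are inserted, in an alignment that allows gaps. The gaps are not printed, so the rows do not line up base by base and the capitals do not follow printed position.
Trbv13-2: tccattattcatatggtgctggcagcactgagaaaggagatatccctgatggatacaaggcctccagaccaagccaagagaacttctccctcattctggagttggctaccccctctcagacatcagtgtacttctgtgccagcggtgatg
Trbv13-1: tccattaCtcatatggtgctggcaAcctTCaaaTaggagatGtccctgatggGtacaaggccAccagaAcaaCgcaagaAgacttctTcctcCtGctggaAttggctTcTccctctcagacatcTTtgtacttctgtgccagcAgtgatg
Trbv13-3: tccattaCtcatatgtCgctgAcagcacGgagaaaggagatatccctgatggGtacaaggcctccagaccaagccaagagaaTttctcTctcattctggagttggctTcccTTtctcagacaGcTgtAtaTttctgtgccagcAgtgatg
Over the whole coding sequence Trbv13-1 (chr6:41116007-41116468) was 87.9% and Trbv13-3 (chr6:41130147-41130585) 90.6% identical to Trbv13-2 (chr6:41121396-41121832). Each 50-base stretch of Trbv13-1, and 99.7% of those of Trbv13-2 and Trbv13-3, occurred in no other annotated transcript.

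Of the 176 segments, 115 had at least 1 count in a sorted library and 42 had one in all 12. By chain, 77 of 128 Trav, 26 of 35 Trbv, 5 of 6 Trdv and all 7 gamma segments were counted. The 15 pseudogenes that were counted gave 170 of the 18117 V segment counts. Beta segments gave 66.8% of the counts, alpha segments 15.9%, gamma segments 10.7% and delta segments 6.55%. Per library the whole set summed to 142 to 183 CPM (mean 159.6 ± 11.6, SD, n = 12).

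The files give each gene both as a count and as TPM (transcripts per 1e6 transcripts), a level scaled by transcript length, and for the alpha segments the 2 differed. Alpha segments were 15.9% of the counts but 38.4% of the summed TPM (36.9 to 40.3% across the 12 libraries), while beta segments were 66.8% and 51.6%. TPM was above 0 in at least 1 library for 154 segments. A group of 41 segments, all of them Trav, had a TPM but no count in any sorted library, whereas 2 segments had counts but no TPM, and 20 had neither. The 51 Trav segments without a count carried 56.3 ± 4.16% (SD, n = 12) of the alpha TPM.

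Most of these uncounted alpha segments have copies. The comparison that follows was made after Trav11 was seen at 0 counts beside a high TPM. In the annotation 21 pairs of alpha segments, 42 members in all, have coding sequences that are identical or contained one in the other. Every one of the 42 had 0 counts in every sorted library, and together they held 55.9% of the alpha TPM. A second measure was the share of 50-base stretches of each segment's transcript that occur in no other annotated transcript, on either strand. Of 43 segments with no stretch of their own, 42 had no count and 40 had a TPM. Of the others, 114 were counted. At 100 bases the corresponding numbers were 41 segments, 40 without a count and 38 with a TPM. The exception that was counted without a 50-base stretch of its own was Trav13n-3, with 11 counts over the 12 libraries. The handling of reads that match several genes is not stated in the labels or notes used here.

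**Figure D1:**
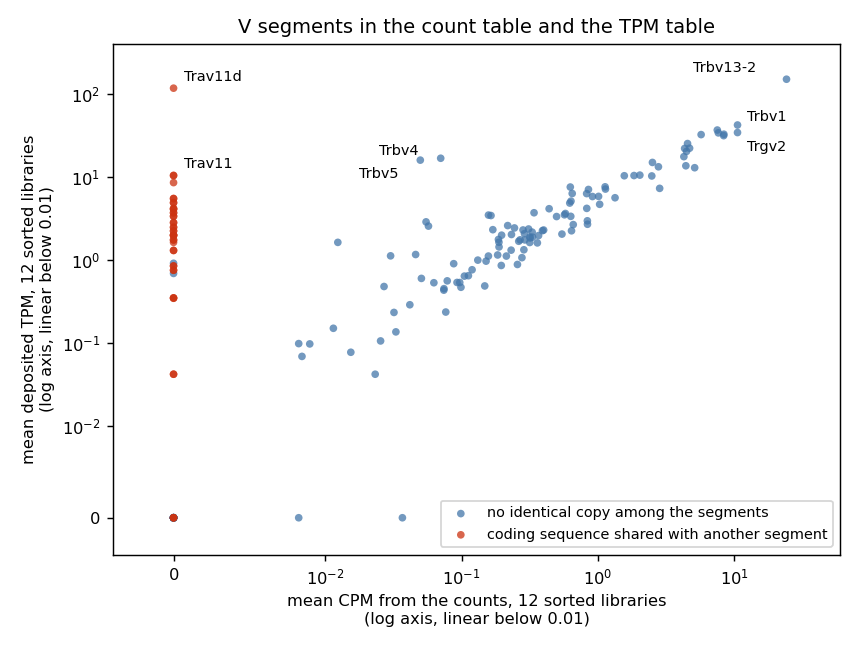
Mean level of each of the 176 V segments over the 12 sorted libraries, as CPM from the counts (x axis) and as deposited TPM (y axis), both on log axes that are linear below 0.01. Points in red share their coding sequence with another segment and all 42 stand at 0 on the x axis, up to Trav11d at a mean TPM of 117.3, while Trbv4 and Trbv5 lie well above the other segments of their CPM.

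Trav11, the NKT alpha segment, was the clearest such case. Its count was 0 in all 12 sorted libraries for both Trav11 and Trav11d. Their summed TPM was 115.8, 107.2 and 175.8 in the 2500-cell libraries, 117.5, 97.6 and 176.7 at 5000 cells, 139.5, 123.0 and 122.9 at 10000 cells, and 147.2, 93.2 and 114.7 at 20000 cells. The inputs overlapped throughout. The mean of 127.6 ± 27.3 TPM (SD, n = 12) ranked second among the segments, with identical copies counted as 1, and was 31.1 ± 4.25% of the alpha TPM. It lay below Trbv13-2 in all but 1 library, replicate 3 at 5000 cells (176.7 against 152.6 TPM).

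The split of this sum between the copies changed in 1 library. Trav11d held all of the TPM in every sorted library except replicate 1 at 20000 cells, where Trav11 had 124.1 and Trav11d 23.1. Among the pairs with fully identical transcripts, Trav14d-1 and Trav14n-1 each had the same mean TPM of 5.47. In bulk liver both Trav11 copies were at 0 TPM. Trav1, the alpha segment of mucosal-associated invariant T cells, has no near copy and was low on both scales, with 0 to 10 counts per library (43 in all) and 2.24 ± 1.94 TPM (SD, n = 12).

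**Figure D2:**
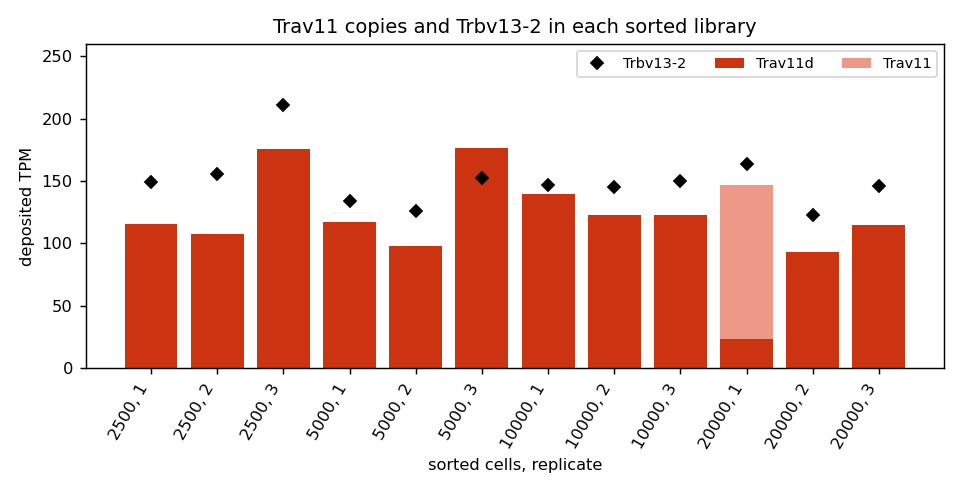
Deposited TPM of Trav11d and Trav11 (stacked bars) and of Trbv13-2 (diamonds) in each of the 12 sorted libraries, named by cell number and replicate. The stacked total runs from 93.2 to 176.7 TPM and passes Trbv13-2 only in replicate 3 at 5000 cells, and Trav11 itself appears only in replicate 1 at 20000 cells.

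A pair of beta segments showed the same gap between the tables without having copies among the V segments. Trbv4 and Trbv5, which were chosen after their values were seen, had 8 and 6 counts over all sorted libraries, beside mean TPM of 16.8 ± 4.18 and 15.9 ± 4.97 (SD, n = 12). Both overlap the annotated gene 5830405F06Rik, and 27.9% and 22.6% of their 50-base stretches were their own. By TPM they were the 11th and 12th beta segments, and by counts per kb the 22nd and 24th.

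Among the beta segments, use was led by Trbv13-2, the segment that the liver's NKT cells use most. Levels between segments are compared as CPM per kb of exon. Trbv13-2 had 59.0 to 96.1 CPM per kb (median 70.6, mean 71.0 ± 9.66, SD, n = 12), which was above Trbv1 at 18.2 to 43.2 (mean 25.3 ± 7.07) in 12 of 12 libraries with no overlap. From Trbv1 down, each of the next 9 neighbours in the order overlapped. Their mean CPM per kb was 21.8 for Trbv12-2, 20.5 for Trbv13-1, 19.2 for Trbv16, 18.4 for Trbv3 and 16.8 for Trbv13-3. The next 3 were Trbv29 with 12.9, Trbv17 with 11.6 and Trbv12-1 with 11.5 CPM per kb.

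The top 10 beta segments made up 81.9 ± 1.3% of the beta counts per kb, with a range of 79.3 to 83.6% over the 12 libraries. Trbv13-2 alone was 25.5 ± 2.88%. The 3 Trbv13 segments together held 38.8 ± 3.21%, and the trio of Trbv1, Trbv13-2 and Trbv29, one from each beta family named above for NKT cells, held 39.1 ± 2.33% (SD, n = 12 for each). These counts come from all the T cells in the sorted lots, and how much of them came from NKT cells was not tested. Use of the alpha segments was flatter in the counts. The top 10 counted alpha segments held 39.3 ± 4.46% of the alpha counts per kb, all neighbours in their order overlapped, and the highest was Trav13-1 at 3.43 ± 1.26 CPM per kb, followed by Trav14-1 at 3.35 and Trav14-2 at 2.92. Segments with identical copies stand at 0 in this order. Of the 50-base stretches of these top 10, 53.8% (Trav14n-3) to 95.1% (Trav14-1) were their own, so their counts may be too low to differing degrees. By TPM the alpha chain was not flatter at its top. Trav11 and Trav11d together were 31.1% of the alpha TPM, and Trbv13-2 was 27.5% of the beta TPM. In the TPM table Trav11d leads the alpha chain and Trav13-1 is 7th.

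The gamma and delta segments were led by a few members each. Trgv2 stood first of the gamma segments with 21.5 ± 4.98 CPM per kb and did not overlap Tcrg-V4 at 10.0 ± 2.38. Tcrg-V1 followed with 4.17 ± 1.67, below Tcrg-V4 in 12 of 12 libraries although their ranges overlapped. Tcrg-V1 and Trgv2 are 95.1% identical over their coding sequence, so that reads from the one may have been set to the other. Tcrg-V5, used by the dendritic T cells of the epidermis, and Tcrg-V6, used by a fetal wave of gamma-delta T cells, had few counts. They ranked 4th and 5th of the 7 gamma segments, with 34 and 24 counts over all libraries. Tcrg-V3 and Tcrg-V7 were lower, with 6 and 3 counts.

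Among the delta segments, Trdv2-2 (11.8 ± 1.65 CPM per kb) and Trdv4 (9.94 ± 1.88 CPM per kb) overlapped. Trdv2-2 shares exon positions with the annotated gene Gm43647 and is 92.2% identical to Trdv2-1. Only 47.4% of its 50-base stretches were its own, against 100% for Trdv4, so its count may be too low. Trdv5 with 1.91 ± 1.05 CPM per kb lay below Trdv4 in every library, and it overlaps the delta constant gene Trdc. Whether reads were counted by strand is not stated in the labels or notes used here, so reads from that pair may not have been told apart. Trdv1 had 0.978 ± 0.813 CPM per kb. Alpha segments with dv in their symbol, such as Trav15-1-dv6-1, can also join the delta chain and are counted with the alpha segments here.

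Gamma and delta segments together were 14.49 to 19.8% of the V counts. The 3 libraries of 5000 cells had the highest shares, 18.7 to 19.8%, and did not overlap the 2500-cell libraries at 14.49 to 16.2%, nor those at 10000 cells (16.7 to 18.2%) and 20000 cells (16.5 to 16.9%). That order was noticed in the values and was not tested between groups. It held only in part on the TPM scale, where the shares were lower. There the 5000-cell libraries had 10.8 to 11.97% and overlapped those at 10000 cells (10.2 to 11.02%). They lay above those at 2500 cells (8.19 to 9.25%) and 20000 cells (9.04 to 9.67%). For gamma segments alone it held only against 2500 cells (7.82 to 10.3%). In that measure 10.7% in replicate 1 at 5000 cells lay below 11.4% in replicate 3 at 10000 cells and 11.2% in replicate 3 at 20000 cells.

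**Figure D3:**
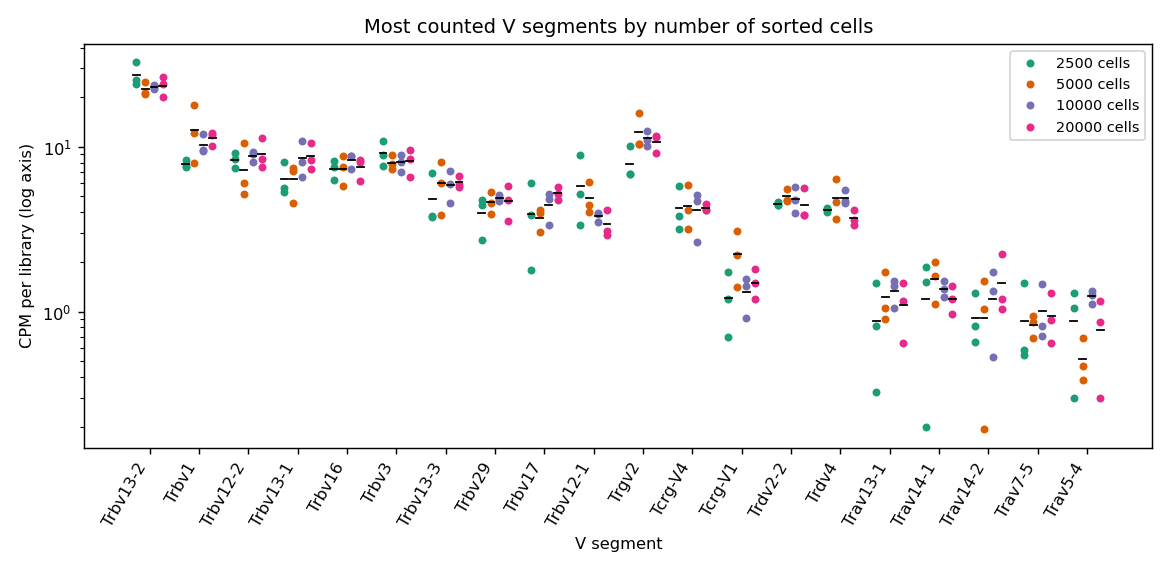
CPM of the 10 most used Trbv, 3 gamma, 2 Trdv and 5 Trav segments in the 12 sorted libraries (log axis), coloured by the number of sorted cells, with a bar at the mean of the 3 libraries. Trbv13-2 lies above the other segments in each library, from 20.1 to 32.7 CPM, and the 4 inputs overlap for most segments.

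Against bulk liver, the V segments were almost wholly a feature of the sorted cells. Bulk liver had 1 V segment count in all, from Trbv29 in replicate 1, and the sorted libraries 18117. The ratio of the pooled rates was 2483 with an exact 95% interval of 446 to 98080, which covers counting error only. For single segments with 0 counts in both bulk libraries the difference is a lower bound, set against 3 counts over the 2 bulk libraries (0.192 CPM). Trbv13-2 was at least 125-fold higher in the sorted cells, Trgv2 at least 55.0-fold and Trbv1 at least 54.5-fold.

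In edgeR's quasi-likelihood test with Benjamini-Hochberg adjustment, 33 of the 35 V segments that passed the filter on low counts were called, all of them higher in sorted cells. Over all 16294 genes tested 80.3% were called and 41.8% were called higher in sorted cells. Those 35 segments could pass the filter only through the sorted libraries, so that their count supports nothing about the set of 176. The 2 that missed the threshold were Trav14-3 (adjusted p = 0.0603) and Trav17 (adjusted p = 0.0857). Without 1 of the 2 bulk libraries, 5 called segments with few counts lost the call, namely Trav14-2, Trav14n-3, Trav15-1-dv6-1, Trav5-4 and Trdv5. The median log2 difference of all genes was 0.17 with TMM scaling and 1.37 with library totals, under which 74.6% of the calls were higher in sorted cells instead of 52.0%. With library totals all 35 segments were called.

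The other genes of the receptor were taken from a list of 18 (constant regions, CD3 chains, coreceptors and genes of receptor assembly). Of these, 15 passed the filter on low counts and all 15 were called higher in sorted cells in edgeR's test with Benjamini-Hochberg adjustment, where 41.8% of all genes were. As with the V segments, genes at or near 0 in bulk liver could pass the filter only through the sorted libraries, so this count supports nothing further. Rag1, Rag2 and Ptcra, genes of receptor assembly in the thymus, did not pass, with 12, 22 and 30 counts over the 12 sorted libraries. Dntt, the polymerase that adds bases at the V-D-J joints, had the most bulk counts of those assembly genes (10 and 8) and a log2 difference of 2.73 (SE 0.28). Trdc, the delta constant region, had 26.5 to 39.6 CPM in the sorted libraries and 0 counts in both bulk libraries.

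Between inputs, no V segment was called. In the comparison of 2500 with 20000 cells, 32 of the 176 V segments passed the filter and 0 were called, beside 0.419% of 14795 genes. For any difference between the 4 inputs the numbers were 0 of 32 beside 0.297%, and for a slope on the log2 cell number 0 of 32 beside 0.0811%. At these rates a set of 32 genes would hold fewer than 1 call on average, so that 0 is near the background. At an unadjusted p under 0.05 there were 2, 1 and 2 V segments by edgeR, and 2, 1 and 2 by DESeq2, which also called 0 after adjustment. Across the 54 alternative fits of these 3 comparisons the highest number of V segments called was 0.

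Between 2500 and 20000 cells, the tested segments nearest to the threshold were beta segments. Trbv12-1 had 8.88, 5.15 and 3.37 CPM in the 2500-cell libraries, 4.46, 4.00 and 6.16 at 5000 cells, 3.48, 3.97 and 3.90 at 10000 cells, and 4.16, 2.91 and 3.10 at 20000 cells. Replicate 1 at 2500 cells was the highest of the 12, and the third of the 2500-cell libraries lay among those at 20000 cells. The log2 difference was 0.79 (SE 0.32, edgeR adjusted p = 0.301). The alpha segment Trav14-3 was not among the 32 tested. It had 1.62, 1.68 and 0.930 CPM at 2500 cells (15, 17 and 8 counts) and 0.446, 0.647 and 0.129 at 20000 cells. Its libraries of 5000 and 10000 cells had 0 to 0.674 CPM. The fit with no filter on low counts called 0 of 115 V segments between 2500 and 20000 cells.

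Trbv1, the second most used beta segment, was the other tested segment with an unadjusted edgeR p under 0.05 between 2500 and 20000 cells. It had 7.58, 7.63 and 8.37 CPM at 2500 cells, 12.1, 7.93 and 18.01 at 5000 cells, 9.49, 12.0 and 9.55 at 10000 cells, and 12.2, 11.8 and 10.1 at 20000 cells. The lowest and highest inputs did not overlap, while the 5000-cell libraries spanned both. The log2 difference was -0.53 (SE 0.24, edgeR adjusted p = 0.347). Trgv2, the leading gamma segment, had the lowest p for any difference between inputs, with an unadjusted p of 0.0460 and an adjusted p of 0.449 in edgeR's test. Its mean was 7.92 ± 1.89 CPM at 2500 cells, 12.3 ± 3.20 at 5000, 11.3 ± 1.19 at 10000 and 10.8 ± 1.38 at 20000 cells (SD, n = 3).

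Trbv13-2, the most counted segment, had 24.2, 25.5 and 32.7 CPM at 2500 cells, 21.3, 20.97 and 24.8 at 5000 cells, 23.8, 22.6 and 23.2 at 10000 cells, and 26.5, 20.1 and 24.2 at 20000 cells. Replicate 3 at 2500 cells was the highest, and the lowest and highest inputs overlapped. The log2 difference between these was 0.22 (SE 0.14, edgeR adjusted p = 0.529). The median log2 difference of the 32 tested segments was -0.12, with SEs of 0.14 to 0.70, and that of all genes tested was 0.01. The 15 tested receptor genes had a median of -0.07 and none passed the test in either direction (lowest edgeR adjusted p = 0.247). Summed V segment CPM was 154.9 ± 9.12 at 2500, 159.4 ± 21.3 at 5000, 163.4 ± 7.16 at 10000 and 160.8 ± 9.59 at 20000 cells (SD, n = 3).

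**Figure D4:**
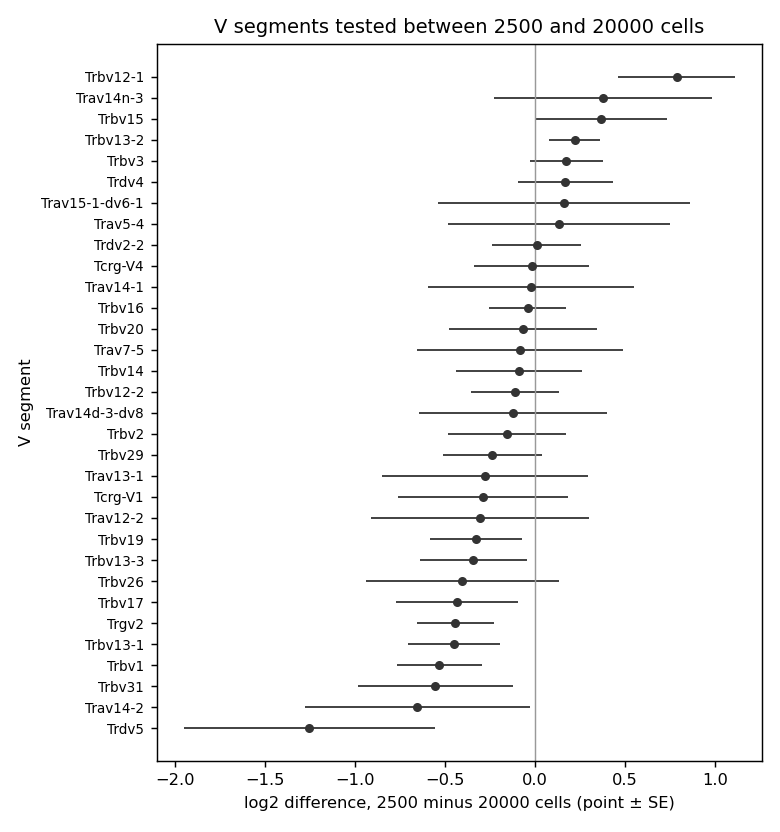
Log2 difference between the 2500-cell and the 20000-cell libraries for the 32 V segments that passed the filter (point and SE from edgeR's fit), ordered by size. Points run from -1.25 for Trdv5 to 0.79 for Trbv12-1, and none passed the adjusted threshold.

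The number of segments seen was compared with the cell number after thinning each library to 6723357 counts, the smallest total. The 2500-cell libraries showed 75.4 to 75.7 segments, the 5000-cell libraries 79.4 to 84.0, those of 10000 cells 77.7 to 83.8 and those of 20000 cells 81.1 to 82.2. All 3 libraries of 2500 cells thus lay below the other 9. The relation with log2 cell number had r = 0.70 (permutation p = 0.0150, adjusted p = 0.0837 over 7 library values, two-sided, n = 12) and Spearman's rho = 0.65 (permutation p = 0.0296), and did not pass the adjusted threshold.

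The relation depended on how a segment was counted as seen. Without thinning r was 0.25, and with TPM above 0 it was 0.40. Taking only segments with at least 3 counts, r was -0.20, and with at least 10 counts it was -0.24. It passed the threshold without replicate 1 at 5000 cells (r = 0.83, permutation test, adjusted p = 0.0196). When the 2 libraries farthest from the median cell number were left out, over the 15 such pairs r ran from 0.50 to 0.70. Before thinning, 79 to 82 segments were counted at 2500 cells and 82 to 97 at the other inputs. Pooled over the 3 libraries of an input, 105, 106, 100 and 106 segments were counted at 2500, 5000, 10000 and 20000 cells. Of these, 26 at 2500 cells were counted in 1 of the 3 libraries only (24.8%), against 10 (9.43%), 11 (11%) and 20 (18.9%) at the larger inputs. These pooled numbers were not thinned and depend on depth. The inputs held 4314, 5263, 4750 and 3790 V segment counts in the same order.

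Evenness of use was measured as the effective number of segments, the exponential of the Shannon entropy, which equals the number of segments when all are used alike. For alpha segments, thinned to 161 counts per library, it was 34.0 ± 1.68 at 2500 cells, 38.2 ± 2.01 at 5000, 37.9 ± 2.68 at 10000 and 39.2 ± 2.22 at 20000 cells (SD, n = 3). The relation with log2 cell number had r = 0.65 (permutation p = 0.0239, adjusted p = 0.0837, rho = 0.65 with permutation p = 0.0288, n = 12). Leaving out the 2 farthest libraries moved r between 0.39 and 0.73. The copies at 0 counts are absent from this number, and with TPM and identical copies summed, an alternative added after the data were seen, r was 0.36 (permutation test, adjusted p = 0.540).

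For beta segments, thinned to 794 counts, the effective number was 12.97 ± 0.57 at 2500 cells and 13.8 ± 0.22, 13.8 ± 0.69 and 13.8 ± 0.31 at the larger inputs (SD, n = 3), with r = 0.52 (permutation p = 0.0789, adjusted p = 0.184, rho = 0.52 with permutation p = 0.0948, n = 12). Leaving out the 2 farthest libraries moved r between 0.24 and 0.62. The other 4 library values had smaller correlations. Summed V CPM had r = 0.22 (rho = 0.24, adjusted p = 0.584), V counts per constant region count r = -0.11 (rho = -0.02, adjusted p = 0.729), the gamma and delta share r = 0.22 (rho = 0.22, adjusted p = 0.584) and the Trav11 share of alpha TPM r = -0.33 (rho = -0.17, adjusted p = 0.540), each by a permutation test over 12 libraries. None of the 7 passed the adjusted threshold.

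**Figure D5:**
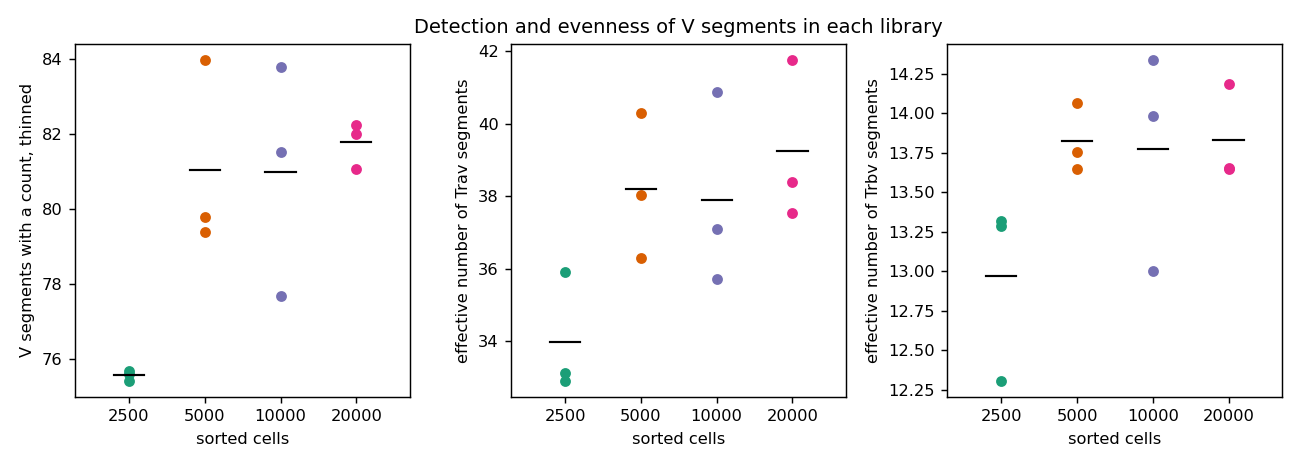
V segments with a count after thinning, and effective number of Trav and of Trbv segments, for the 12 sorted libraries by number of sorted cells, with a bar at the mean of each 3. In the left panel the 3 libraries of 2500 cells lie at 75.4 to 75.7 and the others at 77.7 to 84.0 (the axes do not start at 0).

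The spread between libraries of one input was measured for the 22 segments with a mean of at least 10 counts at every input, as the squared coefficient of variation left after the part due to counting is taken away. The median over these segments was 0.0273 at 2500 cells, 0.0380 at 5000, 0.000597 at 10000 and 0.00744 at 20000 cells, beside 0.0107, 0.00426, 0.00308 and 0.00289 over all 13517 genes with such means. Pooled over inputs it was 0.0349 for the V segments and 0.00852 for all genes. With 3 libraries an input these values are unsteady. The pooled value fell to 0.0164 without replicate 3 at 5000 cells, and the 2500-cell value to -0.0024 without replicate 3 at 2500 cells, so no order of the inputs is drawn from them.

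The estimates of spread differed among the segments, and these differences were not tested. Trbv26 had the largest pooled coefficient of variation beyond counting, 40.95%. It had 0.867, 2.38 and 0.697 CPM at 2500 cells, 1.76, 2.00 and 2.70 at 5000 cells, 0.738, 2.44 and 3.18 at 10000 cells, and 1.93, 1.83 and 1.55 at 20000 cells, so that its libraries lay apart at 2500 and 10000 cells and close together at 20000. It was followed by Trbv31 (31%), Trbv20 (28.3%) and Trbv17 (26.6%). Trbv13-2 had 9.93%, Trbv3 9.76%, Trbv16 9.56%, Trdv2-2 3.76% and Trdv4 3.69%. For Trbv15 the estimate did not exceed the counting part. Mean counts per library were 17.8 for Trbv26, 23.1 for Trbv31, 23.2 for Trbv20, 19.5 for Trbv15 and 227 for Trbv13-2. The largest and the lowest estimates thus came from segments with few counts, where such estimates are unsteady.

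Composition gave a second view. The chi-square per degree of freedom of V segment counts among the 3 libraries of an input, which is 1 when the libraries differ by counting alone, was 3.12 at 2500 cells (43 segments), 2.89 at 5000 (33 segments), 1.70 at 10000 (40 segments) and 1.24 at 20000 cells (33 segments). The same measure over all genes was 10.1, 5.80, 4.47 and 3.72. It grows with the counts in a library, and the V segment counts of the 4 inputs were 4314, 5263, 4750 and 3790. In these libraries the chi-square value was highest at 2500 cells and lowest at 20000 in both gene sets, whereas the squared coefficient of variation of the V segments was highest at 5000 cells and lowest at 10000. These values are a description of 1 set of libraries per input and were not tested.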

How the data were processed

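RNA was sequenced from 12 libraries of sorted cells and 2 of bulk liver. The deposited counts are whole numbers of reads per gene, and the deposited TPM values are scaled by length and library. The submitters' processing notes name RSEM 1.3.0, featureCounts 1.5.1, STAR 2.5.2b, DESeq2 1.34.0, FastQC 0.11.5 and GRCm38, with no role for each. Symbols came from the reference annotation of that build, and 48348 of 48794 identifiers matched. A variance-stabilised table was not used.

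Tests across genes used edgeR 4.0.16 (quasi-likelihood F test, robust, TMM factors, filterByExpr) on the counts, with Benjamini-Hochberg adjustment over all genes tested and a threshold of 0.05. An SE is the log2 difference divided by the root of F. The bulk comparison took all 14 libraries and the 3 input comparisons the 12 sorted ones. DESeq2 1.42.0 and limma 3.58.1 (voom) were alternatives. CPM uses library totals. Relations with log2 cell number used two-sided permutation tests (100000 resamples) over 7 library values, and thinned values are expectations (detection) or means of 200 draws (evenness). Scripts were tested on simulated data.

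The Trav11 share was planned on counts. Both copies had no counts, so TPM was used. The members, lists and tests were chosen with earlier results of these data known, and the comparison of copies, Trbv4 and Trbv5, and the J segments were added after values were seen. Named segments are the 10 Trav, 10 Trbv, 4 gamma and 4 Trdv segments with the most counts per kb, those called between inputs, and, whatever their values, segments known from NKT, mucosal-associated invariant and gamma-delta T cells. Same-numbered libraries did not deviate together, which does not decide whether they shared an animal. Counting error limits segments with few counts, and 3 counts over both bulk libraries (0.192 CPM) set the floor.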

Additional observations from a re-analysis of the deposited data

Results flagged for a closer look

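A signal was found in rows outside the V segments. Traj18, the J segment that the invariant NKT alpha chain joins to Trav11, had 262 counts over the 12 sorted libraries (7 to 35 per library) and 0 in bulk liver, the highest of 60 Traj segments, of which 55 were counted. Its TPM was 0 in every sorted library, as was that of all 60 Traj segments. Trav11 was the reverse, with a TPM and no counts. All 14 Trbj segments were counted (3176 counts) and none had a TPM. These rows were looked at after the Trav11 values were seen, and the cause was not tested.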

How the results depend on the processing

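Calls against bulk liver numbered 33 in the main fit, 32 to 35 with other scalings or tests, 43 with no filter on low counts, and 28 to 34 when 1 library was left out. The input comparisons gave 0 calls under each alternative run. The correlation of detected segments with cell number was 0.25 without thinning and 0.40 on TPM, turned to -0.20 at 3 or more counts and -0.24 at 10 or more, and ran from 0.63 to 0.83 when 1 library was left out, passing the threshold without replicate 1 at 5000 cells. That of V counts per constant region count ran from -0.23 to 0.066, turning positive without replicate 1 at 2500 cells (0.049) and without replicate 1 at 20000 cells (0.066). For Trav11 without Trav11d, r was 0.40 and rested on the 1 library where Trav11 had a TPM. The pooled spread of 0.0349 was 0.0626 on TPM, where counting error cannot be taken away, and ran from 0.0164 to 0.0418 when 1 library was left out. Of the 25 named segments fitted between 2500 and 20000 cells, 11 changed sign under an alternative, and none was called.

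Same-numbered libraries did not deviate together. Their correlations of deviations ran from -0.0997 to 0.0861 (18 pairs, 0 above 0.1) and those of other pairs from -0.107 to 0.0992. Whether same-numbered libraries came from the same animal cannot be read from this, since technical spread would not be shared. With the replicate number as a block, 33 segments were called against bulk liver and 0, 0 and 0 in the 3 input comparisons.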
